A study of Mus musculus with 12 samples.

Results

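In immortalised mouse fibroblasts that lack Fadd and Mlkl, 36 protein-coding genes were almost without transcripts, and the same genes were detected in every library of those cells once Fadd was put back. The set was chosen on the deposited TPM values (a transcript level corrected for gene length and library size). A gene entered it with a mean TPM under 0.1 over the 3 Fadd/Mlkl knockout libraries and a TPM of at least 0.5 in each of the 3 libraries with Fadd put back. Of 21900 protein-coding genes, 41 met this rule. Fadd itself, Gas6, Cadm1, Fbln2 and Grem1 were left out by name, which leaves the 36. Protein-coding genes held 25.34% to 36.13% of TPM in a library, lowest in Fadd knockout replicate 1, so both limits depend on the remaining share. With TPM rescaled over protein-coding genes alone, which raises every value, the rule gave 45 genes, of which 19 were among the 36. Because the rule used the Fadd libraries, the difference between those 2 groups is described without a test. The libraries of the Casp8 line, the promoter sequences and the gene positions played no part in the choice.

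At ligand-bound death receptors, the adaptor FADD recruits the protease caspase-8. Active caspase-8 triggers apoptosis and holds back necroptosis, a lytic form of death in which MLKL ruptures the plasma membrane. Many genes that are active in most cell types start in promoters rich in the dinucleotide CpG, while genes used by a few tissues often start in CpG-poor promoters. Imprinted genes are read from 1 parental copy only.

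All cells were Mlkl -/- and derived from mouse embryonic fibroblasts (MEFs) that SV40 large T antigen had immortalised. They were untreated and harvested 24 h after plating. The Fadd line was Fadd -/- Mlkl -/- and carried an empty vector (called the Fadd knockout here) or ectopically re-expressed Fadd. The Casp8 line was Casp8 -/- Mlkl -/- and carried an empty vector (the Casp8 knockout) or ectopically re-expressed Casp8. Each of the 4 groups had 3 libraries from cultures that the labels call independent, and cells with an intact genome are not among the 12 libraries analysed here. Empty-vector and re-expressing cells are separately transduced populations. The labels do not say whether any was a clone, so the gene put back and the population that carries it cannot be told apart. In bulk RNA, fewer cells with a transcript and less transcript per cell cannot be told apart either.

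Fadd was at 0.02, 0.01 and 0.01 TPM in the knockout and at 4.24, 3.05 and 3.99 TPM where it was put back, and between 1.39 and 2.08 TPM in the Casp8 line. Casp8 was at 3.51, 3.11 and 3.34 TPM in the Casp8 knockout and at 28.62, 70.8 and 76.48 TPM where it was put back. In the Fadd line Casp8 was between 10.53 and 17.17 TPM, below every library with Casp8 put back. Depth ran from 33918359 to 59388559 counts per library. The first principal component, with 52.28% of the variance, separated the lines. The Fadd line lay at -113.9 to -38.33 and the Casp8 line at 22.32 to 102.8. Both replicate 1 libraries of the Casp8 line also lay apart from the other 4 of that line, at 22.32 and 36.28 against 81.93 to 102.8. Fadd knockout replicate 1 was at -113.9, against -82.01 and -82.82 for replicates 2 and 3 of its group. The fibroblast markers summed to 1350 to 1949 TPM in the Fadd knockout, 2118 to 2126 TPM with Fadd put back and 2683 to 3498 TPM in the Casp8 line. Thy1 was at 0 in all libraries but 1 (0.06 TPM in Casp8 knockout replicate 1), and Prrx1 was at 0.32 to 1.24 TPM in the Fadd line against 19.52 to 91.22 TPM in the Casp8 line. The 8 epithelial markers summed to 0.38 to 2.11 TPM in the Fadd knockout and 2.7 to 15.83 TPM with Fadd put back. Krt19 made up most of that sum, while Krt18, Krt5 and Cldn4 were at 0 throughout the Fadd line. The part of these markers in the members' levels was not tested.

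Summed over the 36 members, TPM was 1.25, 1.41 and 0.87 in the Fadd knockout libraries and 120, 68.97 and 55.54 where Fadd was put back. Loxl2 alone gave 22.4% of the summed mean with Fadd put back, and Cdkn1c gave 11.2%. The median member had a group mean of 0.025 TPM in the knockout and 1.33 TPM with Fadd put back. These are low to moderate levels: 2 members averaged over 5 TPM with Fadd put back, 8 lay between 2 and 5, 17 between 1 and 2, and 9 under 1. The opposite pattern, under 0.1 TPM with Fadd put back and at least 0.5 TPM in each knockout library, was found for 4 genes (Hoxc11, Kctd14, Prickle1 and Slfn2). In the Casp8 line the same rule took 1 gene (Gm10337) as silent in the knockout and on with Casp8 put back.

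**Figure D1:**
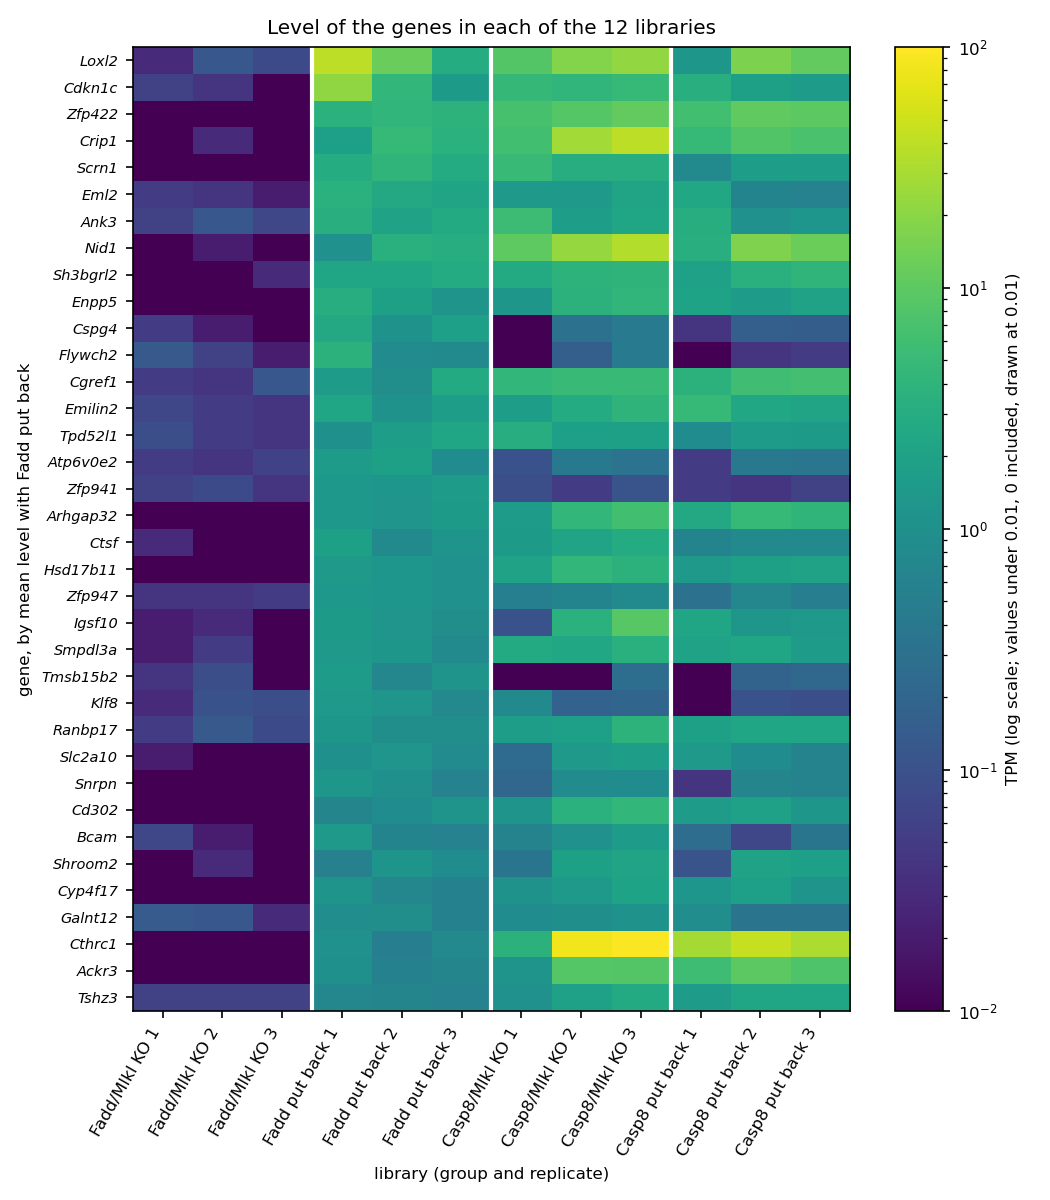
TPM of each of the 36 members (rows) in each of the 12 libraries (columns), on a log colour scale. The 3 Fadd knockout libraries hold no member above 0.14 TPM, every member is at 0.52 TPM or more in the libraries with Fadd put back, and most members are also detected in the 6 libraries of the Casp8 line.

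The promoters of the members were not of 1 kind. RefSeq windows of 300 bases, from 250 before to 50 after each gene's start, matched 28 of the 36 members on build GRCm38.p6. Loxl2, Cdkn1c, Ank3, Enpp5, Smpdl3a, Cyp4f17, Galnt12 and Cthrc1 had none. The 5 windows below are shown because they span the range of CpG content in the set. They include the member with the highest level and no more than 1 count in the knockout, and the only member that was silent in the Casp8 line as well. Every CG is in capitals and all other bases are in lower case. The first is Zfp422 (chr6:116628652-116628951, minus strand), with 32 CG dinucleotides. Sh3bgrl2 (chr9:83548088-83548387, plus strand) also has 32, Scrn1 (chr6:54566333-54566632, minus strand) has 17, Zfp941 (chr7:140822129-140822428, minus strand) has 5 and Cd302 (chr2:60284435-60284734, minus strand) has 3.
Zfp422: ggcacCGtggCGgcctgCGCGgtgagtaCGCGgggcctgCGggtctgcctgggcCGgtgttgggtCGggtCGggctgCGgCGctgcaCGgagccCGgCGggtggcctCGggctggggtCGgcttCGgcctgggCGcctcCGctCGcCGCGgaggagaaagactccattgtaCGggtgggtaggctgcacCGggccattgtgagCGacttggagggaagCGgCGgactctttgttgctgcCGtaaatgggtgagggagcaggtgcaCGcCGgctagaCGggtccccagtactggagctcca
Sh3bgrl2: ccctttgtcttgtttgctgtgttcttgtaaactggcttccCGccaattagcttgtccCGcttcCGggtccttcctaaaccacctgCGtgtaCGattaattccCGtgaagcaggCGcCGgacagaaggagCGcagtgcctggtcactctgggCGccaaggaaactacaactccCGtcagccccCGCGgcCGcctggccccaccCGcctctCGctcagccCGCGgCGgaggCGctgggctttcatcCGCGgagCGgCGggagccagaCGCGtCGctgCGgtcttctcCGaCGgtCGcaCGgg
Scrn1: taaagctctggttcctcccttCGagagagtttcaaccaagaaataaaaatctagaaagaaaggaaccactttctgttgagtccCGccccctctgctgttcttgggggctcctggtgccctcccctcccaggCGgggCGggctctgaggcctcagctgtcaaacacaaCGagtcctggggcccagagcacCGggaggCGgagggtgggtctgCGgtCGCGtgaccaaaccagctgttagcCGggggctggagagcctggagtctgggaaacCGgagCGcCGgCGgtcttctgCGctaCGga
Zfp941: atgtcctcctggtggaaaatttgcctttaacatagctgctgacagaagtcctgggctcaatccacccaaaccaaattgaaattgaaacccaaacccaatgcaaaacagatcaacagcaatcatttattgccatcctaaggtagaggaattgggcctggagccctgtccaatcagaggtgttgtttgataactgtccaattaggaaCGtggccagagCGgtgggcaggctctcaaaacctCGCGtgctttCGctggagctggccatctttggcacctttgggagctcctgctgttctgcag
Cd302: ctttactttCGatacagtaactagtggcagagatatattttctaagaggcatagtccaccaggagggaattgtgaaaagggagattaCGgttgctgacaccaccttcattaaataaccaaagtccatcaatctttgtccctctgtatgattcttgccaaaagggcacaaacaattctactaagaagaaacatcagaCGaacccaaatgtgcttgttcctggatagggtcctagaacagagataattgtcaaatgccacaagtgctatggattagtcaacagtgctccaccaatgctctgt

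Observed over expected CpG, the usual measure of CpG density corrected for base composition, was 0.89 for Zfp422, 1.02 for Sh3bgrl2, 0.604 for Scrn1, 0.274 for Zfp941 and 0.234 for Cd302. Sh3bgrl2 and Cd302 were the highest and lowest of the 28 members with a window. The median of the 28 was 0.602, beside 0.584 over 16571 protein-coding genes with a window. It lay between the median of 0.791 for 7905 genes at 0.5 TPM or more in all 12 libraries and that of 0.21 for 6148 genes under 0.1 TPM in all 12. Of the 28, 15 (53.6%) were above 0.6 and 9 (32.1%) below 0.4. Among all protein-coding genes those shares were 48.6% and 36.9%. Among genes on in all 12 libraries they were 79.3% and 6.68%, and among genes silent in all 12 they were 12.5% and 75.2%. These ratios are means over a gene's windows, and 7 members had several windows. Arhgap32 and Shroom2 counted below 0.4 although they have windows at 0.921 and 0.76. Emilin2 and Eml2 counted above 0.6 although they have windows at 0.4 and 0.536. Both CpG-rich promoters such as that of Zfp422 and CpG-poor promoters such as that of Cd302 belong to genes with at most 1 count in the Fadd knockout.

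**Figure D2:**
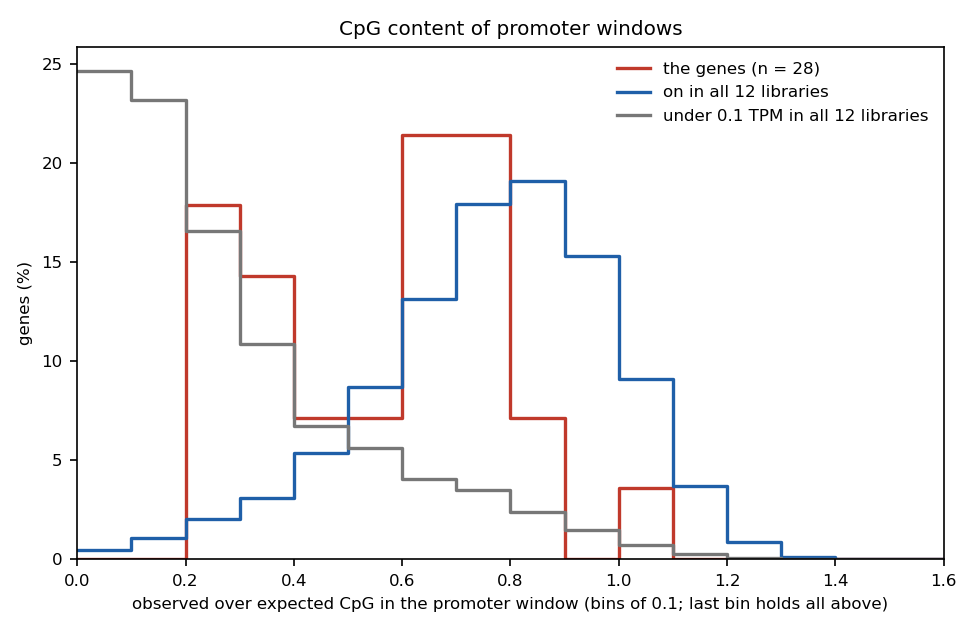
Distribution of observed over expected CpG in 300-base promoter windows as the percentage of genes in bins of 0.1, for the 28 members with a window (red), genes on in all 12 libraries (blue) and genes under 0.1 TPM in all 12 (grey). The members cover both the CpG-poor and the CpG-rich range, with a median of 0.602.

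Short motifs were searched on both strands of the same windows, and a gene counted if any of its windows held the motif. GGGCGG, the GC box read by Sp and Klf family factors, was in 23 of the 28 members (82.1%). It was in 51.0% of all protein-coding genes with a window and in 73.3% of those on in all 12 libraries. CCAAT, read by NF-Y, was in 18 (64.3%) against 42.1% of all protein-coding genes with a window. TATAAA was in 3 (10.7%) against 14.3%, the E-box CACGTG in 3 (10.7%) against 9.18%, and the AP-1 motif TGANTCA in 1 (3.57%) against 8.19%. Each match is a description of letters in the window and no evidence of binding.

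Among the members with roles in the extracellular matrix, Loxl2 had the highest level of the whole set. LOXL2 is a lysyl oxidase family enzyme that cross-links collagen. Its gene (chr14:69609068-69695834) was at 0.03, 0.12 and 0.08 TPM in the Fadd knockout and at 39.62, 12.22 and 3.00 TPM with Fadd put back (18.28 ± 19.05, SD, n = 3). The groups did not overlap, but replicates 1 and 3 of the put-back group lay 13.2-fold apart, and the first carried most of the mean. Nid1, which encodes nidogen-1, a linker protein of basement membranes, was at 0, 0.02 and 0 TPM against 1.05, 3.41 and 3.14 TPM, with replicate 1 the lowest of the put-back libraries. Emilin2, an elastin microfibril protein, was at 0.07, 0.05 and 0.04 TPM against 2.36, 1.10 and 1.69 TPM. These 3 were the members among 297 genes of a matrix list drawn up by symbol, of which 92 were on with Fadd put back. Cthrc1, a secreted protein with a collagen triple helix repeat, had 0 counts in all 3 knockout libraries and was at 1.05, 0.52 and 0.76 TPM with Fadd put back. Cspg4, the NG2 proteoglycan of pericytes and glial precursors, was at 0.05, 0.02 and 0.01 TPM against 2.60, 1.14 and 1.82 TPM. As for Loxl2, replicate 1 was the highest put-back library for Emilin2, Cthrc1 and Cspg4, so Nid1 ran opposite to the other 4 matrix genes in that library.

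Among regulators of transcription, Zfp422 had the most even levels. It encodes a C2H2 zinc finger protein and lies at chr6:116624016-116628999, with the CpG-rich promoter printed above. It had 1 count in the 3 knockout libraries together, which is 0 TPM in each, and 3.65, 4.25 and 3.92 TPM with Fadd put back (3.94 ± 0.3005, SD, n = 3). Zfp941 was at 0.06, 0.08 and 0.04 TPM against 1.37, 1.27 and 1.64 TPM. The third zinc finger gene, Zfp947, was at 0.04, 0.04 and 0.05 TPM against 1.35, 1.26 and 1.07 TPM. The highest and lowest put-back libraries were 1.16-fold apart for Zfp422, 1.29-fold for Zfp941 and 1.26-fold for Zfp947, closer than for any of the 5 matrix genes. Klf8, a Krüppel-like factor, was at 0.03, 0.10 and 0.09 TPM against 1.40, 1.24 and 0.75 TPM. These 4 were the members among 543 C2H2 zinc finger genes, of which 393 were on with Fadd put back. Tshz3, a teashirt homeobox factor and the only member among 395 other transcription factors (166 on), was at 0.06 TPM in every knockout library and at 0.71, 0.65 and 0.60 TPM with Fadd put back. Tshz3 was thus close to the lower limit of the rule in all 3.

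Members that are imprinted in the mouse were Cdkn1c and Snrpn, both on chromosome 7. Cdkn1c (chr7:143458339-143461050) encodes p57, an inhibitor of cyclin-dependent kinases read from the maternal copy. It was at 0.06, 0.04 and 0 TPM in the knockout and at 21.37, 4.49 and 1.49 TPM with Fadd put back (9.117 ± 10.72, SD, n = 3). The put-back libraries were 14.3-fold apart, the widest spread in the set, and fell in the same order as for Loxl2. Snrpn (chr7:59982495-60140219), a splicing protein gene read from the paternal copy, had 0 counts in the knockout and was at 1.30, 1.00 and 0.59 TPM with Fadd put back. Snrpn shares its span with Snurf, which was at 0 TPM in the knockout and at 1.48, 0.95 and 0 TPM with Fadd put back, so the division of reads between them is uncertain. Against a floor of 3 counts over the knockout group, Snrpn was at least 150-fold higher with Fadd put back, Cd302 at least 91.9-fold and Cthrc1 at least 65.8-fold, in counts per library total.

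The set also held genes of the cell surface and of transport. Cd302, a C-type lectin receptor (chr2:60251993-60284488), had 0 counts in the knockout and was at 0.65, 0.88 and 1.17 TPM with Fadd put back. Its neighbour Ly75, whose transcripts can read through into Cd302, was at 5.56 to 9.75 TPM in the same knockout libraries, so the absence of Cd302 counts was not shared by the gene beside it. Ackr3, an atypical receptor that scavenges the chemokine CXCL12, was at 0.01, 0.01 and 0 TPM against 1.01, 0.58 and 0.66 TPM and was the only member among 279 G protein-coupled receptor genes (44 on). Bcam, a laminin receptor of the immunoglobulin superfamily, was at 0.07, 0.02 and 0 TPM against 1.42, 0.63 and 0.59 TPM. Igsf10, of the same superfamily and with Cd302 one of 2 members among 344 adhesion genes (94 on), was at 0.02, 0.03 and 0.01 TPM against 1.51, 1.23 and 0.94 TPM. All 4 were low even with Fadd put back, and no put-back library of any of them passed 1.51 TPM. The transport genes were Slc2a10, the glucose transporter GLUT10, at 0.02, 0.01 and 0 TPM against 1.03, 1.24 and 0.85 TPM, and Atp6v0e2, a subunit of the vacuolar proton pump, at 0.05, 0.04 and 0.06 TPM against 1.61, 1.87 and 0.89 TPM. They were the members among 853 channel and transporter genes, of which 300 were on. Lists of cadherins (101 genes, 15 on), growth factors (269, 90 on), receptor kinases (227, 103 on) and interferon-induced genes (130, 60 on) held no member. The remaining 23 members were in none of the 10 lists.

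Several of those 23 encode proteins of the cytoskeleton, of protein turnover or of lipid metabolism. Scrn1, encoding secernin-1, was at 0 TPM in every knockout library, with 3 counts in all, and at 2.98, 4.08 and 2.91 TPM with Fadd put back. Crip1, a LIM domain protein (chr12:113146316-113153879), had 1 count in the knockout and was at 1.79, 4.70 and 3.61 TPM with Fadd put back. In counts per library total the Crip1 ratio was 239-fold, with an exact 95% counting interval of 42.4 to 9480, and that of Scrn1 was 1060-fold (362 to 5130). These intervals pool the 3 libraries of a group. The rule picked genes near 0 in the knockout, so high ratios were fixed in advance and the intervals are no test. Eml2, a microtubule-associated protein, was at 0.05, 0.04 and 0.02 TPM against 3.58, 2.56 and 2.14 TPM. Ank3, the ankyrin G gene that links membrane proteins to spectrin, was at 0.06, 0.12 and 0.07 TPM against 3.32, 1.99 and 2.75 TPM. Like Loxl2, Ank3 was detected in every knockout library, whereas Scrn1 and Crip1 were at the limit of detection. Sh3bgrl2 was at 0, 0.01 and 0.03 TPM against 2.21, 2.26 and 2.85 TPM. Enpp5, of the ectonucleotide pyrophosphatase family, had 1 count in the knockout and was at 3.07, 1.89 and 1.18 TPM. Flywch2 was at 0.13, 0.06 and 0.02 TPM against 3.69, 0.84 and 0.78 TPM, and its put-back libraries lay 4.73-fold apart. Of these genes, Sh3bgrl2 varied least between the put-back libraries and Flywch2 most.

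The other 11 members had mean TPM values of 0.8167 to 1.763 with Fadd put back. Ctsf, a lysosomal cathepsin, Hsd17b11, a dehydrogenase of lipid droplets, and Cyp4f17, a cytochrome P450, had 3, 2 and 3 counts in the knockout. Smpdl3a, an enzyme related to acid sphingomyelinase, was at 1.47, 1.29 and 0.80 TPM with Fadd put back, and Galnt12, which starts O-linked glycosylation, at 0.93, 0.94 and 0.58 TPM. Arhgap32, a GTPase-activating protein, and Shroom2, an actin-binding protein, had means of 1.367 and 0.8633 TPM. Ranbp17, of the importin family, Cgref1, a secreted EF-hand protein, Tpd52l1, of the D52 family, and Tmsb15b2, a beta-thymosin, complete the set. Tmsb15b2 overlaps the closely related Tmsb15l and Tmsb15b1, and Tpd52l1 overlaps Supt4b, so their counts are less certain. The kit kept strand, but the sources used here give no strand setting for the counting. In all, 15 members overlap a gene on the other strand and 11 overlap one on their own strand.

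The put-back libraries did not rank the same for every member. Replicate 1 was the highest for 22 members, replicate 2 for 8 and replicate 3 for 6. The highest was less than 2-fold above the lowest for 18 members, with a median of 1.943-fold over the set. It was over 3-fold above for 4 (Cdkn1c, Loxl2, Flywch2 and Nid1). In the knockout, 3 members had 0 counts over the 3 libraries, 8 had 1 to 3, and 25 had more, up to 112 counts for Loxl2. At the edge of the rule, Galnt12 and Ranbp17 were the members nearest the knockout limit, with means of 0.0967 and 0.0867 TPM, while Zfp37 and D130040H23Rik lay at 0.1 and were not taken. Cthrc1 and Shroom2 were nearest the other limit, with lowest put-back values of 0.52 and 0.56 TPM, and Fgf5 and Rsph9 fell short of it at 0.49 and 0.48 TPM.

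The members were spread over 17 chromosomes, with 6 on chromosome 7 and 5 on chromosome 17. Just 2 pairs lay within 1 Mb of each other: Klf8 and Shroom2, 468001 bases apart on the X chromosome, and Bcam and Eml2, 549649 bases apart on chromosome 7. The nearest protein-coding genes on either side that did not overlap the member gave 72 neighbours, and none was itself a member. Overlapping genes were not counted, and some of them differed between the groups. Med12l, which overlaps Igsf10, was at 0.67, 1.19 and 0.87 TPM in the knockout and at 0.46, 0.28 and 0.26 TPM with Fadd put back. Tmsb15l was at 0, 0 and 0.02 TPM against 1.49, 0.32 and 0.47 TPM, while Wipf3, which overlaps Scrn1, was at 0 TPM throughout. Of the 72, 36 were at 0.5 TPM or more in all 3 Fadd knockout libraries, and each of these 36 had a mean with Fadd put back within 2-fold of that in the knockout (ratios of 0.635 to 1.82). In all, 25 of the 36 members had at least 1 such neighbour. The share within 2-fold was not taken over all genes on in the knockout, so nothing is read from it. A further 27 neighbours were silent in both groups of the Fadd line, and none was silent in the knockout and on with Fadd put back. The 4 neighbours that went from a mean under 0.5 TPM to 0.5 TPM or more were Crip2, which lies 810 bases from Crip1 and averaged 0.2433 and 1.48 TPM, Rragb near Klf8 (0.1933 and 2.1 TPM), Anks6 near Galnt12 (0.46 and 1.413 TPM) and Lrrc61 near Atp6v0e2 (0.4567 and 0.5233 TPM).

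**Figure D3:**
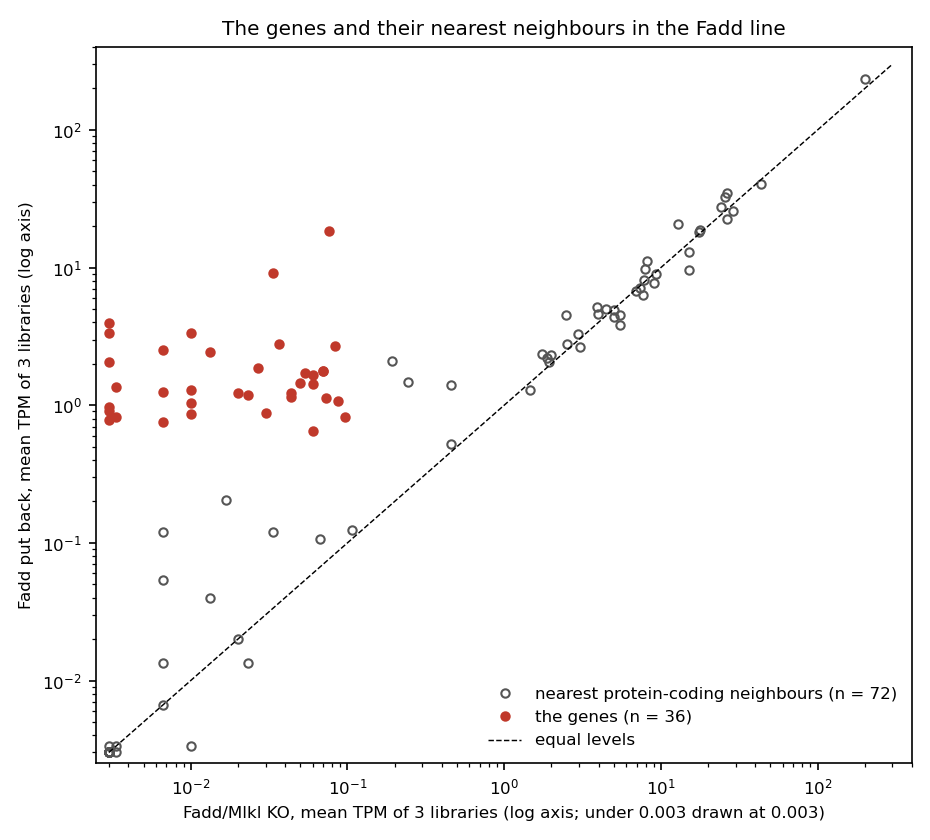
Mean TPM in the Fadd knockout (x axis) against mean TPM with Fadd put back (y axis), both on log scales. Points are the members and their 72 nearest protein-coding neighbours that did not overlap them. The members lie far above the line of equal values by the rule that chose them. The 36 neighbours that were on in the knockout lie within 2-fold of the line, a share that was not taken over all genes.

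The Casp8 line, with and without Casp8 put back, gives the members' levels in fibroblasts that keep their own Fadd. Of the 36 members, 23 (63.9%) were at 0.5 TPM or more in all 6 libraries of that line, 1 was silent (Zfp941) and 12 were between. Among all protein-coding genes 46.7% were on in all 6 and 43.4% were silent. Of the 10526 genes that were on in every library with Fadd put back, 95.5% were on in all 6. Many of those genes have higher levels than the members, so the shares were also taken by level. At 2 to 20 TPM with Fadd put back, 10 of 10 members were on, beside 97.8% of 6452 genes. At 1 to 2 TPM, 8 of 17 members (47.1%) were on, beside 76.7% of 831 genes, and at 0.5 to 1 TPM 5 of 9 (55.6%), beside 50.5% of 275 genes. No test was made of these shares.

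**Figure D4:**
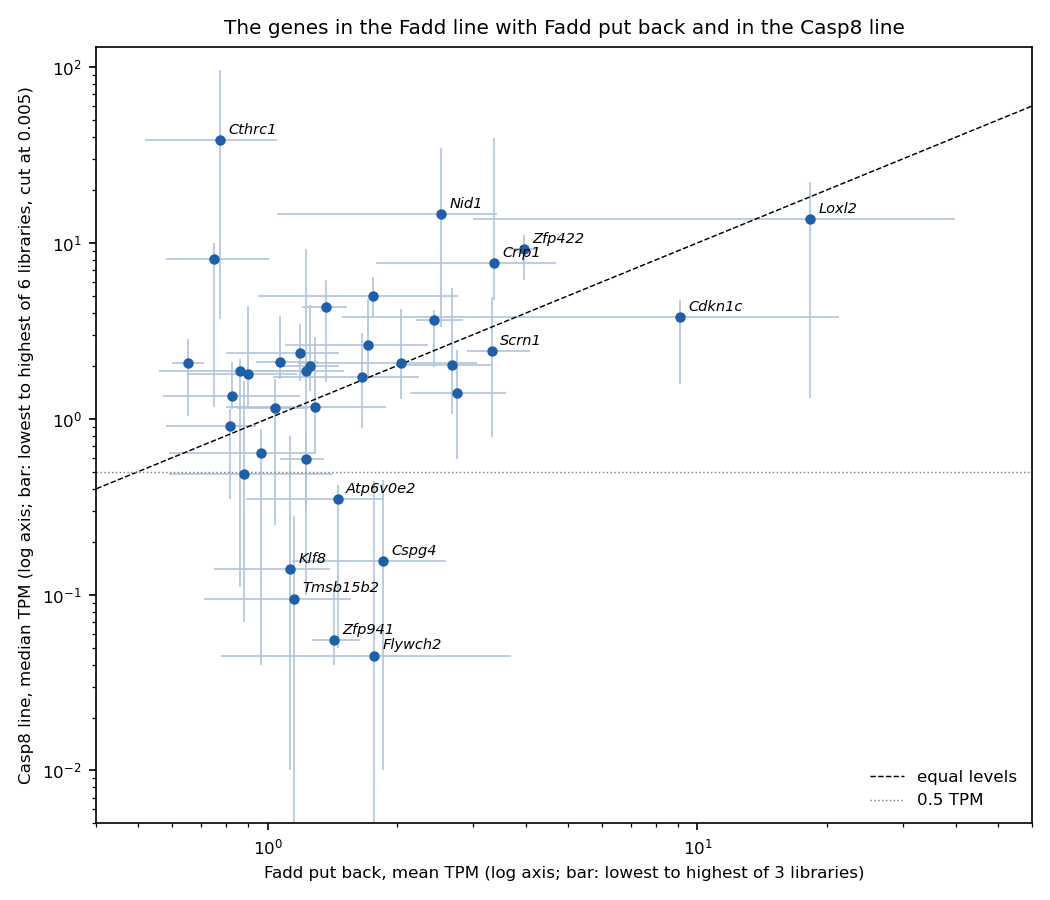
Mean TPM with Fadd put back (x axis) against the median TPM of the 6 Casp8 line libraries (y axis) for the 36 members, on log axes, with bars from the lowest to the highest library. Most members lie above the dotted line at 0.5 TPM, while Zfp941, Flywch2 and Tmsb15b2 have medians under 0.1 TPM.

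Cthrc1 had the highest level in the Casp8 line and 1 of the lowest in the Fadd line. It was at 3.67, 81.91 and 95.93 TPM in the Casp8 knockout (60.5 ± 49.72, SD, n = 3) and at 28.76, 44.84 and 31.99 TPM with Casp8 put back (35.2 ± 8.506, SD, n = 3). All 6 values lay above the 1.05 TPM that was its highest level with Fadd put back, and Cthrc1 gave 30.0% and 28.7% of the members' summed mean in the 2 Casp8 groups. Crip1 was at 6.17, 27.68 and 39.36 TPM against 4.74, 8.29 and 7.11 TPM, and Nid1 at 10.32, 23.49 and 34.72 TPM against 3.33, 16.57 and 12.62 TPM. For all 3 genes, replicate 1 of the Casp8 knockout was the lowest of its group, and the 2 groups overlapped. Loxl2 was at 8.64, 18.06 and 22.34 TPM against 1.31, 16.09 and 11.11 TPM. Of its 6 values, 5 lay within the 3.00 to 39.62 TPM of the Fadd put-back libraries, and replicate 1 with Casp8 put back lay below them. Zfp422 was at 6.96, 8.85 and 11.06 TPM against 6.17, 10.72 and 9.67 TPM, and Ackr3 at 1.17, 8.73 and 8.41 TPM against 5.65, 9.96 and 7.87 TPM. Zfp422 and Ackr3 thus lay above every Fadd put-back library in all 6 libraries of the Casp8 line. Over the set, the median of the 6 libraries was above every Fadd put-back library for 17 members (47.2%) and below every one for 10 (27.8%). Among all protein-coding genes those shares were 21.8% and 14.4%, and among genes on with Fadd put back 33.2% and 21.5%.

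Other members were low or absent in the Casp8 line although on with Fadd put back. Zfp941 was at 0.09, 0.05 and 0.11 TPM in the Casp8 knockout and at 0.05, 0.04 and 0.06 TPM with Casp8 put back, beside 0.04 to 0.08 TPM in the Fadd knockout. Without Casp8 knockout replicate 2 its mean in that group was no longer under 0.1 TPM, and no member then counted as silent in the Casp8 line. Cspg4 was at 0.01, 0.32 and 0.45 TPM against 0.04, 0.16 and 0.15 TPM, and Flywch2 at 0, 0.16 and 0.44 TPM against 0, 0.04 and 0.05 TPM. No library of the Casp8 line reached 0.5 TPM for these 3 genes. Atp6v0e2 was at 0.05 to 0.42 TPM over the 6 libraries and Tmsb15b2 at 0 to 0.28 TPM. Klf8 was at 0.80, 0.18 and 0.20 TPM in the Casp8 knockout and at 0.01, 0.10 and 0.09 TPM with Casp8 put back. Bcam, Slc2a10, Igsf10, Galnt12, Shroom2, Zfp947 and Snrpn passed 0.5 TPM in some libraries and not in others. Of all 36 members, 29 (80.6%) were higher in each of the 6 Casp8 line libraries than in any Fadd knockout library, beside 10.5% of all protein-coding genes and 16.7% of genes on with Fadd put back. The rule favours that share by asking for low values in the Fadd knockout, so nothing is read from it.

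The comparison of the Casp8 knockout with Casp8 put back asks whether the members moved with the caspase that FADD recruits. It was tested with edgeR's quasi-likelihood test over all genes. None of the 35 members tested was called at an adjusted p under 0.05, beside a background of 0.0061% of 16396 genes called in either direction, which is Casp8 itself (log2 change of -3.63, SE 0.325, adjusted p 0.003707). Tmsb15b2 had too few counts to be tested, and 34 of the 35 would pass the count filter without the Fadd put-back libraries. At an unadjusted p under 0.05, 7 members were higher in the Casp8 knockout (Scrn1, Bcam, Klf8, Crip1, Ctsf, Hsd17b11 and Zfp941) and none was lower, beside 4.12% and 1.56% of all genes tested. With the replicate number as a block within each line, 11 members were higher at that limit and none was lower, beside 6.9% and 4.39% of all genes tested, and again none was called. DESeq2 called 3 members, all higher (Scrn1, Bcam and Ctsf), beside 0.805% of all genes called higher and 0.0671% called lower, and limma-voom called none. Without both replicate 1 libraries of this line no member was called, beside 0.587% of all genes called higher and 0.0712% called lower. The members' fitted changes were above 0 for 30 of 35, with a median of 0.70 on the log2 scale, beside 8359 of 16396 genes and a median of 0.007852 over all genes. With single libraries left out, 23 to 34 of the 35 were above 0, the fewest without Casp8 knockout replicate 2, and the median was 0.4437 to 0.7302. Replicate 1, which lay apart in both groups of this line, was the lowest library for 28 of 36 members in the Casp8 knockout and for 23 with Casp8 put back. It was the lowest for 44.3% and 43.7% of protein-coding genes at 0.5 TPM or more in at least 1 library of the group. The members were not limited in that way, so the sets are not alike. The part of replicate 1 in the members' changes was not tested beyond leaving it out.

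**Figure D5:**
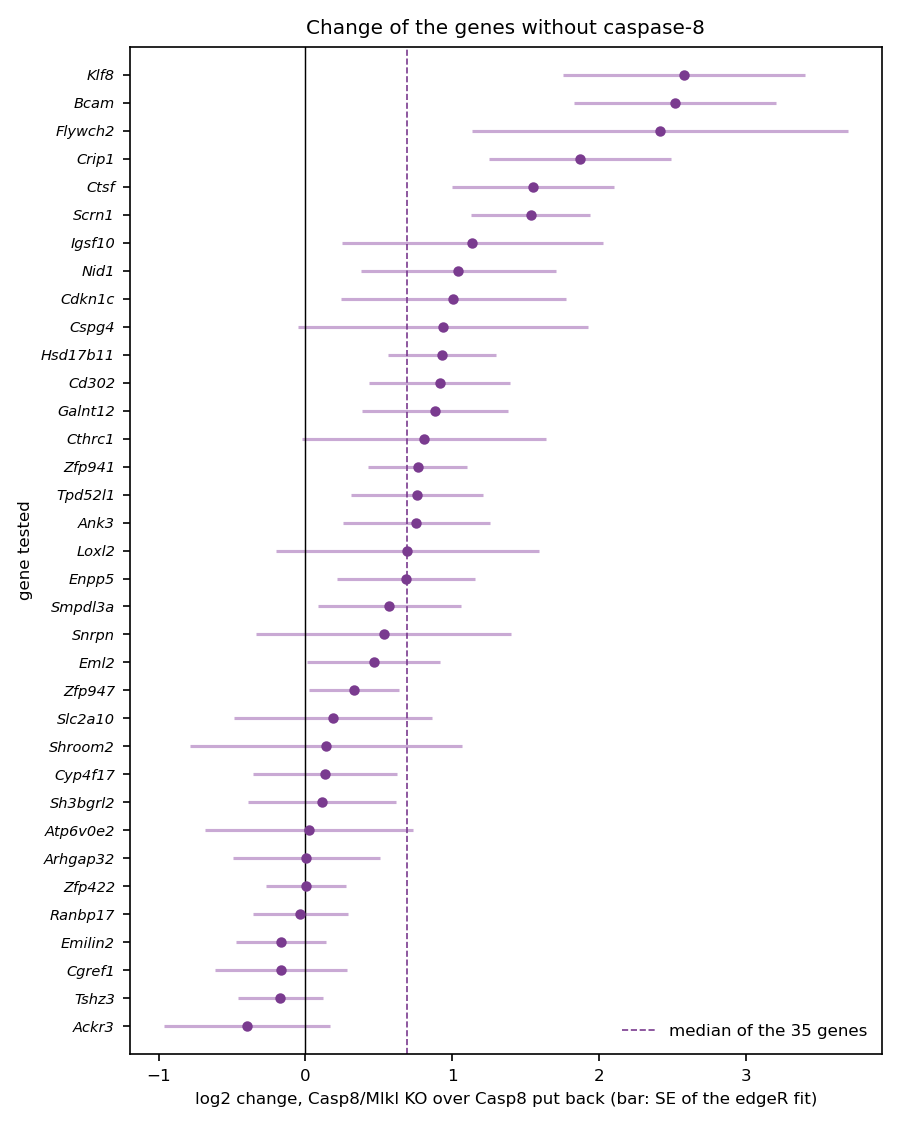
Fitted log2 change, Casp8 knockout minus Casp8 put back, for each of the 35 members tested, with bars of 1 standard error. Most points lie above 0, and no member passed an adjusted p of 0.05.

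Scrn1 had the smallest p among the members. It was at 4.90, 3.14 and 3.12 TPM in the Casp8 knockout and at 0.79, 1.73 and 1.71 TPM with Casp8 put back, and the groups did not overlap. Its log2 change was 1.54 (SE 0.406, edgeR adjusted p 0.481). Bcam was at 0.61, 1.05 and 1.64 TPM against 0.27, 0.07 and 0.36 TPM, again without overlap, with a log2 change of 2.52 (SE 0.687, adjusted p 0.511). Ctsf was at 1.52, 2.14 and 2.90 TPM against 0.64, 0.80 and 0.82 TPM, with a log2 change of 1.55 (SE 0.551, adjusted p 0.701). Cdkn1c was at 4.66, 4.29 and 4.74 TPM against 3.25, 1.89 and 1.58 TPM, and Smpdl3a at 2.75, 2.51 and 3.46 TPM against 2.01, 2.21 and 1.63 TPM. Neither overlapped, and their log2 changes were 1.01 (SE 0.765) and 0.57 (SE 0.487). With the 6 Casp8 line libraries alone, their SEs were 0.273 and 0.223, and neither was called (edgeR adjusted p 0.763 and 0.931). In CPM scaled by TMM, the measure the test uses, the groups did not overlap for 8 members, all higher in the Casp8 knockout (the 5 just named with Hsd17b11, Klf8 and Zfp941), beside 5.78% of all genes tested. None was lower without overlap, beside 4.91%. Several members abundant in this line had changes smaller than their standard errors: Zfp422 at 0.01 (SE 0.272), Tshz3 at -0.17 (SE 0.291) and Ackr3 at -0.40 (SE 0.567). Without Casp8 knockout replicate 1, Tshz3 was at 0.04 and Ackr3 at 0.09, and Zfp422 ranged from -0.229 to 0.192 with single libraries left out. The common coefficient of variation between replicates was 36.99%.

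In the Fadd line the same model called 1.24% of all genes tested lower in the knockout. That share is given as background only, since the contrast chose the members.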

How the data were processed

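RNA was sequenced from 12 cultures in 4 groups of 3. Per the labels' protocols, a stranded total RNA kit was used. The submitters' processing notes name Trim Galore 0.5.0, STAR 2.7.5a, RSEM, HOMER 4.11, Picard, SAMtools and DESeq2, and builds mm10 and GRCm38. Their parameters are not known here. The deposited gene tables hold RSEM expected counts and TPM, per the file headers. The authors' expected counts carry no normalisation, and 96.05% of them are whole numbers. The authors' TPM values are scaled for gene length and library total. The table of endogenous retroviruses was not used here.

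The 92 spike-in rows were dropped, which left 55573 genes. The members were found on TPM, and levels are deposited TPM. Gene positions came from GENCODE M21 on the same build, and promoter windows from RefSeq (GRCm38.p6). Where a gene had several windows, the mean CpG ratio was used, and a motif counted if any window held it. Counts were rounded and filtered with filterByExpr (minimum count 10), scaled by TMM and fitted with 1 mean per group over all 12 libraries by edgeR 4.0.16 (R 4.3.3). P-values were adjusted by Benjamini-Hochberg over the 16396 genes that passed the filter. Alternatives used TMMwsp, limma-voom (limma 3.58.1), DESeq2 1.42.0, no count filter, the 6 Casp8 line libraries alone, replicate blocks, libraries left out, and other limits in the rule. On simulated data with 16396 genes, the Casp8 contrast recovered 64 of 100 genes changed 4-fold and 87 of 100 changed 16-fold, with 7 false calls. The changed genes were drawn at random from all levels, and no shift of the replicate 1 libraries was simulated. These rates therefore do not give the recovery for the members. Counting intervals and floors cover counting error only. P-values rest on the spread between cultures within groups, estimated over both lines, with 1 line per genotype. The spread of the Fadd libraries, on which the members were chosen, thus enters the Casp8 contrast.

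Within a line, libraries that share a replicate number departed from their group means together (correlations of 0.6602, 0.3909 and 0.6394 for the Fadd line, and of 0.2032, 0.3051 and 0.1273 for the Casp8 line). Replicate numbers were therefore read as pairing libraries inside a line, although the labels leave their meaning unstated. That pairing entered only the alternatives with a replicate block. The main fit had no block, so its changes, SEs and adjusted p-values leave the pairing out.

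The members, the gene lists and the tests were chosen with earlier results of these data known. Genes named with values are Fadd and Casp8, the 12 members highest with Fadd put back, the 6 highest in the Casp8 line, up to 6 members per direction without overlap in the Casp8 line and at 1 TPM or more, up to 4 per role list, and the 2 genes nearest each limit of the rule on either side. Other members and neighbours are named to account for the whole set.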

Additional observations from a re-analysis of the deposited data

Results flagged for a closer look

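For 8 members the knockout and put-back libraries did not overlap in either line, and the direction was opposite. Each was lower in every Fadd knockout library than in every library with Fadd put back, which the rule requires. Each was higher in every Casp8 knockout library than in every library with Casp8 put back, in CPM scaled by TMM, beside 5.78% of all genes tested. In TPM the Casp8 groups did not overlap for 7 members: Zfp941 and Hsd17b11 overlapped, and Tpd52l1 did not. No share of all genes is given for TPM, so nothing is read from this count of 7. Zfp941 was at 0.11 TPM or less in all 6 libraries of the Casp8 line. The log2 changes in the Casp8 line (knockout minus put back) were 2.58 for Klf8, 2.52 for Bcam, 1.55 for Ctsf, 1.54 for Scrn1, 1.01 for Cdkn1c, 0.93 for Hsd17b11, 0.77 for Zfp941 and 0.57 for Smpdl3a. Klf8 was at 1.45 without Casp8 knockout replicate 1 and at 0.93 without both replicate 1 libraries of the line. Scrn1 was at 0.84 without both, and Hsd17b11 at 0.60 without Casp8 knockout replicate 2. None passed an adjusted p of 0.05 in edgeR. The difference between the lines was not tested, since the members were chosen on the Fadd contrast. Groups of 3 libraries were not searched for single outlying libraries.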

How the results depend on the processing

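The rule gave 70 genes with a limit of 0.25 TPM in place of 0.5 in the put-back libraries and 17 with 1 TPM. With single Fadd line libraries left out it gave 36 to 46 genes. TPM rescaled over protein-coding genes alone gave 45 genes, of which 19 were among the 36. Members silent in the Casp8 line numbered 1 as reported, 2 with a limit of 0.2 TPM, 0 with rescaled TPM, and 0 to 2 with single libraries left out (0 without Casp8 knockout replicate 2, 2 without replicate 3 of either group). Members called in the Casp8 line numbered 0 in 13 of 14 alternatives and 3 with DESeq2, and 7 passed an unadjusted p under 0.05, a limit added after seeing the data. The members' median log2 change was above 0 in all 14. Genes called in that contrast, 1 as reported, numbered 143 with DESeq2, 4 without the count filter, 0 with the 6 Casp8 line libraries alone, 0 to 22 with single libraries left out (0 without Casp8 knockout replicate 2, 2 without its replicate 3, 3 without its replicate 1, and 22 without replicate 1 of the Casp8 put-back group), and 111 without both replicate 1 libraries. The replicate block within each line gave 6 genes, 0 members and a member median of 0.58, and the block over all 12 libraries gave 1 gene. Of 168 alternatives for 12 members' changes, 157 kept their direction and side of the threshold, 3 passed it with DESeq2 (Scrn1, Bcam and Ctsf), and 8 changed sign, all in members with changes smaller than their standard errors. Zfp422 was at -0.0048 with TMMwsp, -0.0029 with the 6 libraries alone, -0.076 without both replicate 1 libraries and -0.229 to 0.192 with single libraries left out. Leaving out single libraries gave -0.445 to 0.0397 for Tshz3 and -0.851 to 0.0927 for Ackr3, above 0 only without Casp8 knockout replicate 1. Depth limits the knockout levels of the 11 members that had 3 counts or fewer over 3 libraries. Proteins were not measured.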
